A study of Mus musculus with 18 samples.

Results

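The 38 genes described here encode enzymes and membrane proteins of the lysosome, together with the transcription factor Tfeb and the growth factor Grn, which act on it. They were taken by name from a list. The rule uses no measured value, but the list was chosen with earlier results of these data known. All 38 were present among the 54532 genes of the liver expression table. By role they comprised 13 hydrolases of glycans and sulfate esters, 7 hydrolases, carriers and activators that handle lipids, 10 proteases, 6 membrane proteins and 2 regulators. All 38 reached a mean of at least 1 FPKM (fragments per kilobase of transcript, scaled to library size), so none was lost to the filter that left 10216 genes for testing.

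The lysosome is the acidic compartment in which the cell degrades proteins, glycans and lipids that arrive by endocytosis and autophagy. Its soluble hydrolases are tagged with mannose 6-phosphate in the Golgi and delivered by receptors, while a proton pump, the V-ATPase, keeps the lumen acidic and heavily glycosylated membrane proteins line the limiting membrane. In liver, hepatocyte lysosomes take part in the breakdown of lipid droplets and lipoproteins, and Kupffer cells, the resident macrophages, are rich in lysosomes. TFEB is a transcription factor that mTORC1 keeps in the cytoplasm of fed cells; in the nucleus it binds E-box elements in the promoters of many lysosomal genes.

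Liver RNA came from 18 male C57BL/6 mice (C57BL/6J in the methods), 6 weeks old at the start, in 3 groups of 6. Normal control (NC) mice ate normal chow. HFD mice ate a high-fat diet for 14 weeks and then received saline while the diet went on, and SZ-A mice had the same diet and then received SZ-A, the alkaloids of Ramulus Mori (mulberry twig), a group of polyhydroxy alkaloids with DNJ as a main one. The deposited description gives 8 weeks for the saline or SZ-A phase, whereas the methods give a shorter time, and the dose and route used for the sequenced mice were not named. Comparing HFD with NC mice shows what the diet goes with, and comparing SZ-A with HFD mice shows what the alkaloids go with on that diet. Whether NC mice received saline as well is not clear from the methods, so saline could also differ between NC and HFD mice. NC and SZ-A mice differed in both diet and treatment, so their comparison separates neither.

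Each mouse gave 17163191 to 20493907 fragments on genes. The hepatocyte markers were by far the most abundant of the cell markers examined, with summed levels of 47600 to 66900 FPKM in NC mice, 32500 to 52300 in HFD mice and 39400 to 65800 in those given SZ-A, so the tissue label held. The title of NC6 places it on normal chow whereas its diet field says high-fat, and the title was followed. NC5 stood apart within its group: it was the highest of the 6 NC mice for 11 of the 38 genes and the lowest for 14. It also stood apart over all genes. Pairs with NC5 had a chi-square per degree of freedom of 89.2 to 145, and the other NC pairs 27.1 to 75.8. Counts of highest and lowest over all genes are not given here. Calls that turn on NC5 or NC6 are given with and without them. Levels are FPKM, given as the median of the 6 mice with the lowest and highest in parentheses, differences are log2 fold changes of FPKM + 0.1 with their standard error, and p-values are from limma with Benjamini-Hochberg adjustment over all 10216 genes. Genes were called changed when the fold change was above 1.2 with an adjusted p below 0.05.

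Because TFEB acts through E-boxes, the promoters of the 38 genes were read for that motif. RefSeq windows of 250 bases before to 50 bases after a start were found for 33 of the genes in GRCm38.p6. A gene can have several starts, as had Psap, Ctsa and Lgmn with 2 windows each and Tfeb with 3, and a gene was counted when any of its windows held the motif. The core E-box CACGTG, which reads the same on both strands, was present for 10 of the 33 genes (30.3%), against 2187 of the 27025 genes with a window (8.09%). The longer form TCACGTGA, which contains the core and is also the same on both strands, was present in 3 of the 33 (9.09%) and in 304 of all genes (1.12%). All 33 genes had passed the filter on expression, which was not applied to the 27025, so these shares compare unlike sets. Stretches before the start are shown for genes with a core that were called higher in HFD than in NC mice, and for genes with the longer form. Each is written 5′ to 3′ on the strand of the gene, with the core E-box in capitals. Lamp1 (chr8:13159080-13159160, plus strand) had 4 cores within the 61 bases before its start. Arsa (chr15:89477425-89477460, minus strand), Naglu (chr11:101070001-101070046, plus strand) and Lgmn (chr12:102439116-102439161, minus strand) each had 1 core, which began 16, 73 and 49 bases before the start, respectively. Ctsa (chr2:164833741-164833772, plus strand), Ctsd (chr7:142387900-142387945, minus strand) and Mcoln1 (chr8:3500454-3500499, plus strand) had the longer form. In Ctsa and Lgmn the motif was in 1 of the 2 windows.
Lamp1: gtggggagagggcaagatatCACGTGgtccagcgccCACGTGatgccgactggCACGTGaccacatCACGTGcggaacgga
Arsa: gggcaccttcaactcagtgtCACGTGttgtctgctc
Naglu: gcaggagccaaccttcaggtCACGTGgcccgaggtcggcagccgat
Lgmn: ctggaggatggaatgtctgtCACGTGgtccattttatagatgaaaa
Ctsa: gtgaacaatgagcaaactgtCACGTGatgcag
Ctsd: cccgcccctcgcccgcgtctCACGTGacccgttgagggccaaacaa
Mcoln1: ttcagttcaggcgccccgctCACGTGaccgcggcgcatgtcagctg

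The other windows with a core were those of Glb1, Sgsh and Ctsl. Asah1, Ctsb, Ctsh, Galns and Npc1 had no entry. A match of letters is a description of the window and shows no binding.

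Levels, which FPKM puts on a scale per transcript length, spanned from 1.47 to 254 FPKM over the 38 genes. Psap and Lamp1 were the most abundant, with means over the 18 mice of 254 and 244 FPKM. Psap encodes the precursor of the saposins, the activators of sphingolipid breakdown, and Lamp1 a main glycoprotein of the lysosomal membrane. Next came the proteases, with Ctsz at 185, Ctsd at 104, Ctsb at 103 and Ctsl at 103 FPKM, and then Lipa, the acid lipase that cleaves cholesteryl esters and triglycerides, at 83.7 and Grn at 82.5 FPKM. At the low end were Galns at 1.96, Tfeb at 1.77, Idua at 1.76 and Sgsh at 1.47 FPKM.

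On the high-fat diet, 18 of the 38 lysosomal genes changed against NC. Of these, 16 rose and 2 fell. Over all 10216 genes tested, 20.2% were called in this comparison, 10.7% higher and 9.49% lower. The genes that rose were Arsa, Arsb, Hexa, Naglu, Manba, Asah1, Smpd1, Psap, Ppt1, Ctsb, Ctsc, Ctss, Lgmn, Lamp1, Cd63 and Laptm5, and those that fell were Ctsl and Grn. The median log2 fold change over the 38 genes was 0.26, against -0.03 over all genes tested. The 6 HFD mice all lay above the 6 NC mice for 11 of the 38 genes and below them for none, where 10.5% of all genes had groups that did not overlap. Without NC6 the count was 17, and without NC5 it was 17. Of the 18 calls, 15 were made in each of 24 alternative fits that tested the gene, and those of Psap, Grn and Asah1 were not.

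Macrophage markers were also higher in the HFD livers. Of 18 markers, 13 were tested, and 8 of them rose and none fell, where 10.7% of all genes were called higher. Their summed level ranged over 235 to 417 FPKM in NC mice, 402 to 634 in HFD mice and 363 to 514 in those given SZ-A, and no marker was at 0 in every mouse of a group. The count was 4 or 5 without NC1, NC2, NC4, HFD2, HFD4 or HFD5. Markers of stellate cells rose for 6 of 8 genes tested and those of neutrophils, S100a8 and S100a9, for 2 of 2, while Ly6g and Mpo were listed at 0 in all NC mice. Of 7 endothelial markers 1 rose (14.3%), which is near the share of all genes. Of 12 hepatocyte markers 4 fell, where 9.49% of all genes were called lower. Of 2 cholangiocyte markers none was called. No T cell or B cell marker passed the filter, with summed levels of at most 3.34 and 2.12 FPKM in any mouse. In whole liver RNA, more or fewer cells of a type and more or less RNA per cell cannot be told apart. The part of these cells in the lysosomal values was not tested.

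**Figure D1:**
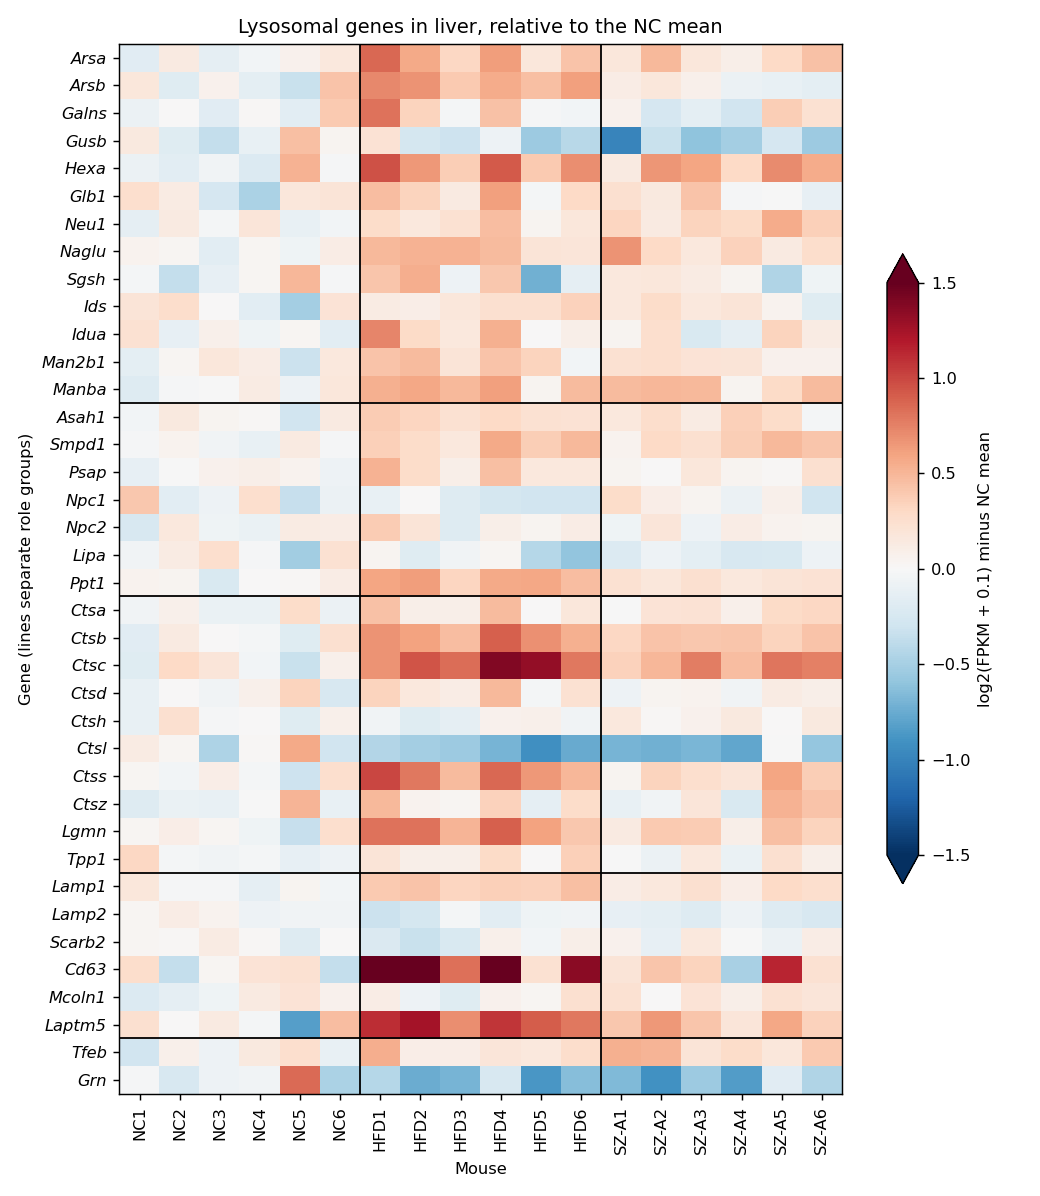
Level of each of the 38 lysosomal genes (rows, by role group) in each of the 18 mice (columns), as log2(FPKM + 0.1) minus the mean of the 6 NC mice. The colour bar is cut at both ends, and Cd63 in HFD1, HFD2 and HFD4 lies past its upper end. Red prevails in HFD columns for Hexa, Ctsb, Ctsc, Ctss, Lgmn and Laptm5, while Ctsl is blue in all 6 HFD mice, and NC5 departs from the other NC mice in Ctsl, Laptm5 and Grn.

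Among the 13 hydrolases of glycans and sulfate esters, 5 rose in HFD mice, none fell and 8 were not called, with a median log2 fold change of 0.30. Here and for the other role groups, the shares over all genes tested were 10.7% higher and 9.49% lower. Hexa (ENSMUSG00000025232, chr9:59539540-59565109) encodes the alpha subunit of beta-hexosaminidase, which removes the terminal sugar of GM2 ganglioside. Its level was 27.4 (24.8 to 41.4) in NC mice, 45.8 (37.0 to 55.8) in HFD mice and 42.8 (31.4 to 46.9) in those given SZ-A, a 1.58-fold rise in HFD against NC (log2 fold change 0.66 ± 0.14, adjusted p = 0.00504). One NC mouse, NC5 with 41.4 FPKM, reached into the HFD range, and without it the difference was larger (log2 fold change 0.77, adjusted p = 0.000746). Arsb (ENSMUSG00000042082, chr13:93771630-93943016), the sulfatase of dermatan sulfate, stood at 2.13 (1.71 to 2.98) in NC mice, 3.34 (2.89 to 3.67) in HFD mice and 2.17 (1.97 to 2.47) in those given SZ-A. It was 1.48-fold higher in HFD than in NC mice (log2 fold change 0.57 ± 0.12, adjusted p = 0.0063), and the groups overlapped through NC6, the highest of the NC mice.

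Arsa (ENSMUSG00000022620, chr15:89472476-89477425) encodes the sulfatase that clears sulfatide, and Naglu (ENSMUSG00000001751, chr11:101070012-101077672) an enzyme of heparan sulfate breakdown. Arsa measured 16.4 (14.5 to 18.2) in NC mice, 23.1 (18.4 to 29.6) in HFD mice and 19.2 (17.3 to 22.9) in those given SZ-A, and rose 1.41-fold in HFD mice (log2 fold change 0.49 ± 0.11, adjusted p = 0.00777). Naglu measured 8.78 (7.66 to 9.31) in NC mice, 12.1 (9.72 to 12.4) in HFD mice and 10.4 (9.47 to 13.8) in those given SZ-A, and rose 1.32-fold (log2 fold change 0.40 ± 0.09, adjusted p = 0.00571). For both, every HFD mouse was above every NC mouse. Manba (ENSMUSG00000028164, chr3:135485611-135571404), the beta-mannosidase, was less abundant at 2.19 (1.92 to 2.49) in NC mice, 3.18 (2.27 to 3.42) in HFD mice and 3.10 (2.27 to 3.15) in those given SZ-A. Its 1.37-fold rise (log2 fold change 0.45 ± 0.11, adjusted p = 0.00925) was shared by 5 HFD mice, while HFD5 at 2.27 FPKM lay within the NC range.

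The 8 enzymes that were not called in this comparison were Galns, Gusb, Glb1, Neu1, Sgsh, Ids, Idua and Man2b1, with log2 fold changes from -0.23 ± 0.15 for Gusb to 0.30 for Glb1, Idua and Man2b1. Neu1 (ENSMUSG00000007038, chr17:34931253-34935953), the sialidase, stood at 10.4 (9.72 to 12.1) in NC mice, 12.3 (11.0 to 14.8) in HFD mice and 13.4 (11.7 to 15.8) in those given SZ-A, with an adjusted p of 0.0738 for HFD against NC. Gusb (ENSMUSG00000025534, chr5:129989011-130003049), the beta-glucuronidase, was at 8.08 (6.41 to 11.3) in NC mice, 6.75 (5.64 to 9.61) in HFD mice and 5.70 (4.10 to 6.91) in those given SZ-A, with an adjusted p of 0.286. Both were called between SZ-A and NC mice. Glb1, the beta-galactosidase often used as a mark of senescent cells, averaged 3.04 ± 0.592 in NC mice, 3.76 ± 0.609 in HFD mice and 3.27 ± 0.488 in those given SZ-A (mean ± SD). Idua overlaps the opposite-strand gene Slc26a1, which was far more abundant at 37 FPKM against 1.76, and since counting by strand was not stated, its reads may not all be its own.

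Of the 7 genes that handle lipids, 4 rose in HFD mice and 3 were not called, with a median log2 fold change of 0.28. Ppt1 (ENSMUSG00000028657, chr4:122836242-122859175), a thioesterase that strips fatty acids from acylated proteins, had the smallest p of this group. Its level was 6.02 (5.01 to 6.36) in NC mice, 8.85 (7.40 to 9.17) in HFD mice and 6.81 (6.56 to 6.97) in those given SZ-A, so that the lowest HFD mouse was above the highest NC mouse. The difference was 1.44-fold (log2 fold change 0.53 ± 0.08, adjusted p = 0.000635). Ppt1 overlaps Cap1, a more abundant gene on the opposite strand (21.6 against 7.08 FPKM), with the same limit as for Idua.

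Smpd1 (ENSMUSG00000037049, chr7:105554360-105558389), the acid sphingomyelinase, stood at 10.9 (10.2 to 12.1) in NC mice, 14.1 (12.3 to 16.4) in HFD mice and 13.8 (11.4 to 15.4) in those given SZ-A, and rose 1.29-fold (log2 fold change 0.37 ± 0.08, adjusted p = 0.00537). Asah1 (ENSMUSG00000031591, chr8:41340197-41374773), the acid ceramidase, stood at 8.95 (7.14 to 9.68) in NC mice, 10.6 (10.2 to 11.4) in HFD mice and 10.1 (8.57 to 11.2) in those given SZ-A, and rose 1.22-fold (log2 fold change 0.28 ± 0.08, adjusted p = 0.0228). In both, the HFD and NC mice did not overlap. The Asah1 change lay close to the fold threshold, and without NC5 or without HFD1 the gene was not called (log2 fold change 0.23, adjusted p = 0.017, and log2 fold change 0.26, adjusted p = 0.0512). Psap (ENSMUSG00000004207, chr10:60277627-60302597) stood at 236 (214 to 248) in NC mice, 271 (248 to 333) in HFD mice and 239 (233 to 274) in those given SZ-A, a 1.21-fold rise (log2 fold change 0.28 ± 0.09, adjusted p = 0.041). This call was not kept when any of NC1, NC2, NC3, NC4, NC6, HFD1, HFD2 or HFD4 was left out, where the adjusted p was 0.0536 to 0.0892. The cholesterol pathway was not called: Lipa, Npc1 and Npc2, the lipase and the pair of proteins that carry cholesterol out of the lysosome, had log2 fold changes of -0.20 ± 0.15, -0.18 ± 0.12 and 0.11 ± 0.10.

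The proteases held the largest differences of the soluble enzymes, and in both directions. Among 10 genes, 4 rose, 1 fell and 5 were not called. Ctsc (ENSMUSG00000030560, chr7:88278085-88310888), the dipeptidyl peptidase that activates the serine proteases of immune cells, measured 10.4 (8.07 to 12.6) in NC mice, 19.0 (16.4 to 27.0) in HFD mice and 16.0 (13.0 to 17.9) in those given SZ-A. It rose 1.99-fold (log2 fold change 0.99 ± 0.14, adjusted p = 0.000564), with every HFD mouse above every NC mouse. Ctss (ENSMUSG00000038642, chr3:95526786-95556403), a cysteine protease best known from antigen-presenting cells, measured 25.5 (20.6 to 30.3) in NC mice, 42.2 (35.4 to 51.4) in HFD mice and 31.3 (26.3 to 38.6) in those given SZ-A. Lgmn (ENSMUSG00000021190, chr12:102394084-102439813), the asparaginyl endopeptidase that processes cathepsins, measured 27.0 (20.9 to 31.5) in NC mice, 43.6 (35.1 to 49.3) in HFD mice and 34.1 (28.3 to 36.4) in those given SZ-A. Their rises were 1.64-fold (log2 fold change 0.71 ± 0.11, adjusted p = 0.000836) and 1.60-fold (log2 fold change 0.67 ± 0.11, adjusted p = 0.00116). Neither overlapped between HFD and NC mice.

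Ctsb (ENSMUSG00000021939, chr14:63122462-63145923), a cysteine protease of broad tissue range, was at 78.8 (69.8 to 93.9) in NC mice, 124 (109 to 148) in HFD mice and 106 (98.3 to 107) in those given SZ-A, without overlap between HFD and NC mice. It rose 1.56-fold (log2 fold change 0.65 ± 0.10, adjusted p = 0.000686). Ctsl (ENSMUSG00000021477, chr13:64359337-64370890), another broadly expressed cysteine protease, went the other way, at 134 (95.2 to 194) in NC mice, 85.1 (69.2 to 96.5) in HFD mice and 81.0 (76.5 to 130) in those given SZ-A. It fell 1.57-fold in HFD mice (log2 fold change -0.65 ± 0.15, adjusted p = 0.00891), and the groups touched only between NC3 at 95.2 and HFD1 at 96.5 FPKM. NC5 had the highest level, 194 FPKM, and without it the difference was smaller and still called (log2 fold change -0.53, adjusted p = 0.00888). The 5 proteases without a call had log2 fold changes of -0.05 ± 0.08 for Ctsh, 0.17 ± 0.09 for Tpp1, 0.18 ± 0.13 for Ctsz, 0.21 ± 0.10 for Ctsa and 0.21 ± 0.11 for Ctsd, the aspartic protease of the lysosome. Ctsa and Ctsd were the protease genes whose promoter windows, printed above, hold the 8-base form of the E-box.

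**Figure D2:**
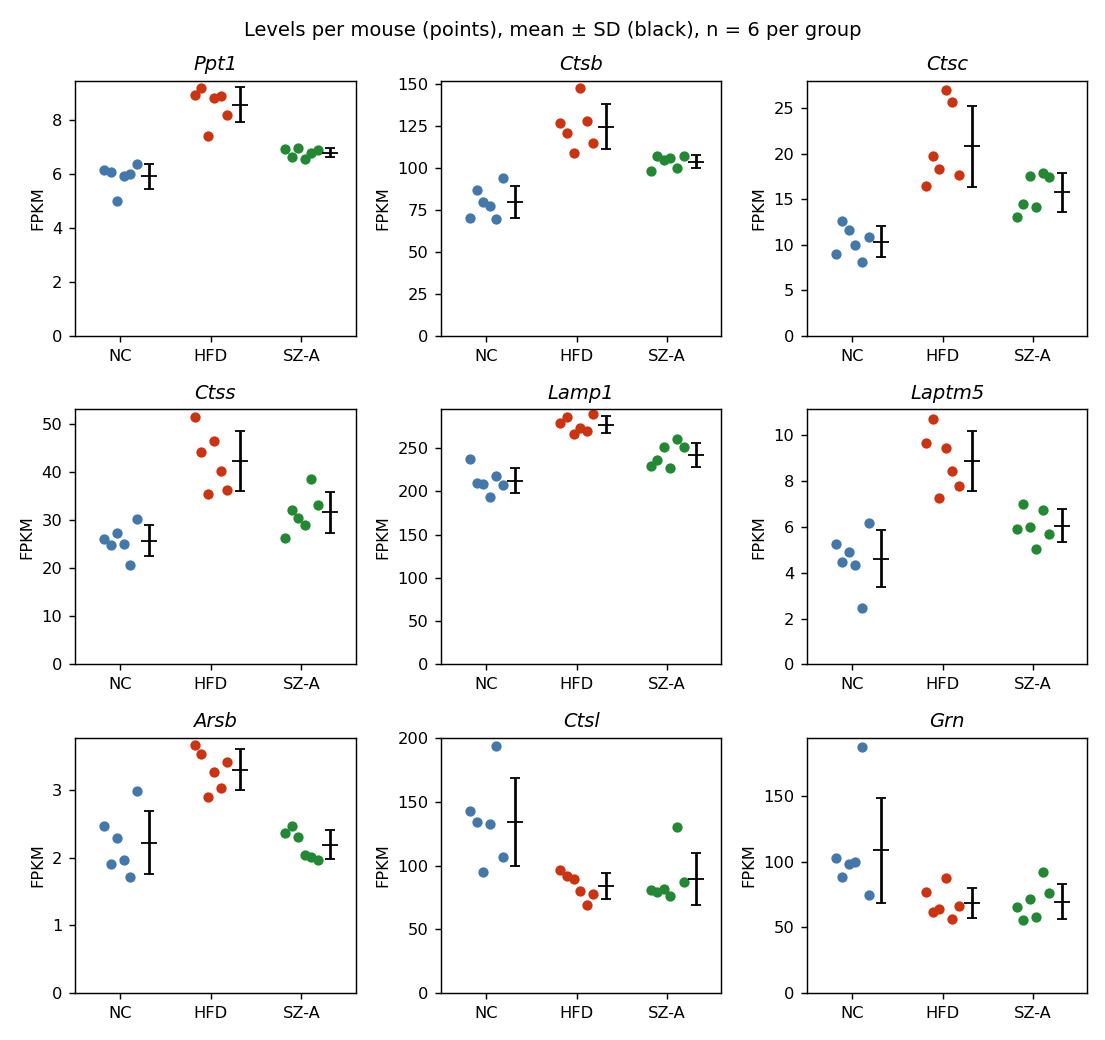
FPKM of 9 lysosomal genes in each mouse (points), with the mean ± SD of the 6 mice of each group in black; every axis starts at 0. Ppt1, Ctsb, Ctsc, Ctss, Lamp1 and Laptm5 are higher in all 6 HFD than in all 6 NC mice, Arsb in SZ-A mice is below all HFD mice, and Ctsl and Grn are lower in HFD than in NC mice with NC5 at the top of the NC group.

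Of the 6 membrane proteins, 3 rose in HFD mice and none fell. Lamp1 (ENSMUSG00000031447, chr8:13159161-13175338), with 4 E-box cores in its promoter window, was at 209 (194 to 238) in NC mice, 276 (266 to 290) in HFD mice and 243 (227 to 261) in those given SZ-A. It rose 1.31-fold (log2 fold change 0.39 ± 0.07, adjusted p = 0.00178), and the lowest HFD mouse, at 266 FPKM, was above the highest NC mouse, at 238. Its partner Lamp2, which also serves chaperone-mediated autophagy, averaged 83.9 ± 4.51 in NC mice, 75.8 ± 6.30 in HFD mice and 74.9 ± 3.10 in those given SZ-A (mean ± SD) and was not called (log2 fold change -0.15 ± 0.07, adjusted p = 0.164). Laptm5 (ENSMUSG00000028581, chr4:130913125-130936141), a lysosomal protein mostly of blood-derived cells, was at 4.68 (2.46 to 6.18) in NC mice, 8.92 (7.24 to 10.7) in HFD mice and 5.93 (5.05 to 7.0) in those given SZ-A. It rose 1.96-fold (log2 fold change 0.97 ± 0.18, adjusted p = 0.00252), without overlap.

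Cd63 (ENSMUSG00000025351, chr10:128900989-128912822), a tetraspanin of late endosomes and exosomes, had the largest fold change of the 38 genes and the widest spread. It was at 1.42 (0.993 to 1.58) in NC mice, 3.74 (1.54 to 8.16) in HFD mice and 1.60 (0.901 to 3.0) in those given SZ-A, and rose 2.58-fold (log2 fold change 1.37 ± 0.31, adjusted p = 0.0074). HFD1 had 8.16 FPKM, while HFD5 with 1.54 FPKM was inside the NC range. A processed copy of the gene, Cd63-ps, was listed at 1.19 FPKM on average against 2.35 for Cd63, and reads of the pair may not be fully separable. The calcium channel gene Mcoln1 and Scarb2, the receptor that carries glucocerebrosidase to the lysosome, were not called, with log2 fold changes of 0.03 ± 0.09 and -0.11 ± 0.09.

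Among the regulators, the transcript of Tfeb (ENSMUSG00000023990, chr17:47737030-47792419) was not called in any of the 3 comparisons as fitted. Its level was 1.52 (1.23 to 1.82) in NC mice, 1.72 (1.63 to 2.27) in HFD mice and 1.94 (1.72 to 2.25) in those given SZ-A, with an HFD against NC log2 fold change 0.22 ± 0.12, adjusted p = 0.193. It was called higher in that comparison with FPKM rescaled to a common sum (log2 fold change 0.41, adjusted p = 0.0293). These are transcript levels, and the nuclear location on which TFEB activity depends was not measured. Grn (ENSMUSG00000034708, chr11:102430315-102437048), the progranulin gene, whose product is processed to granulins inside the lysosome, was at 99.3 (74.9 to 188) in NC mice, 65.3 (56.5 to 87.7) in HFD mice and 68.4 (55.4 to 92.2) in those given SZ-A. It fell 1.52-fold in HFD mice (log2 fold change -0.61 ± 0.19, adjusted p = 0.0354), and the groups overlapped. NC5 had 188 FPKM, and the difference without it was -0.44, adjusted p = 0.0219 on the log2 scale. With NC1, NC3, NC4, HFD2, HFD3, HFD5 or HFD6 left out in turn, Grn was not called, with an adjusted p of 0.0531 to 0.0700.

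Over the 14 genes called higher that have a promoter window, 4 (28.6%) held the core E-box and 0 the 8-base form. Over the 19 other genes with a window, 6 (31.6%) held the core and 3 (15.8%) the 8-base form. The Arsa, Naglu, Lgmn and Lamp1 stretches printed above are the 4.

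**Figure D3:**
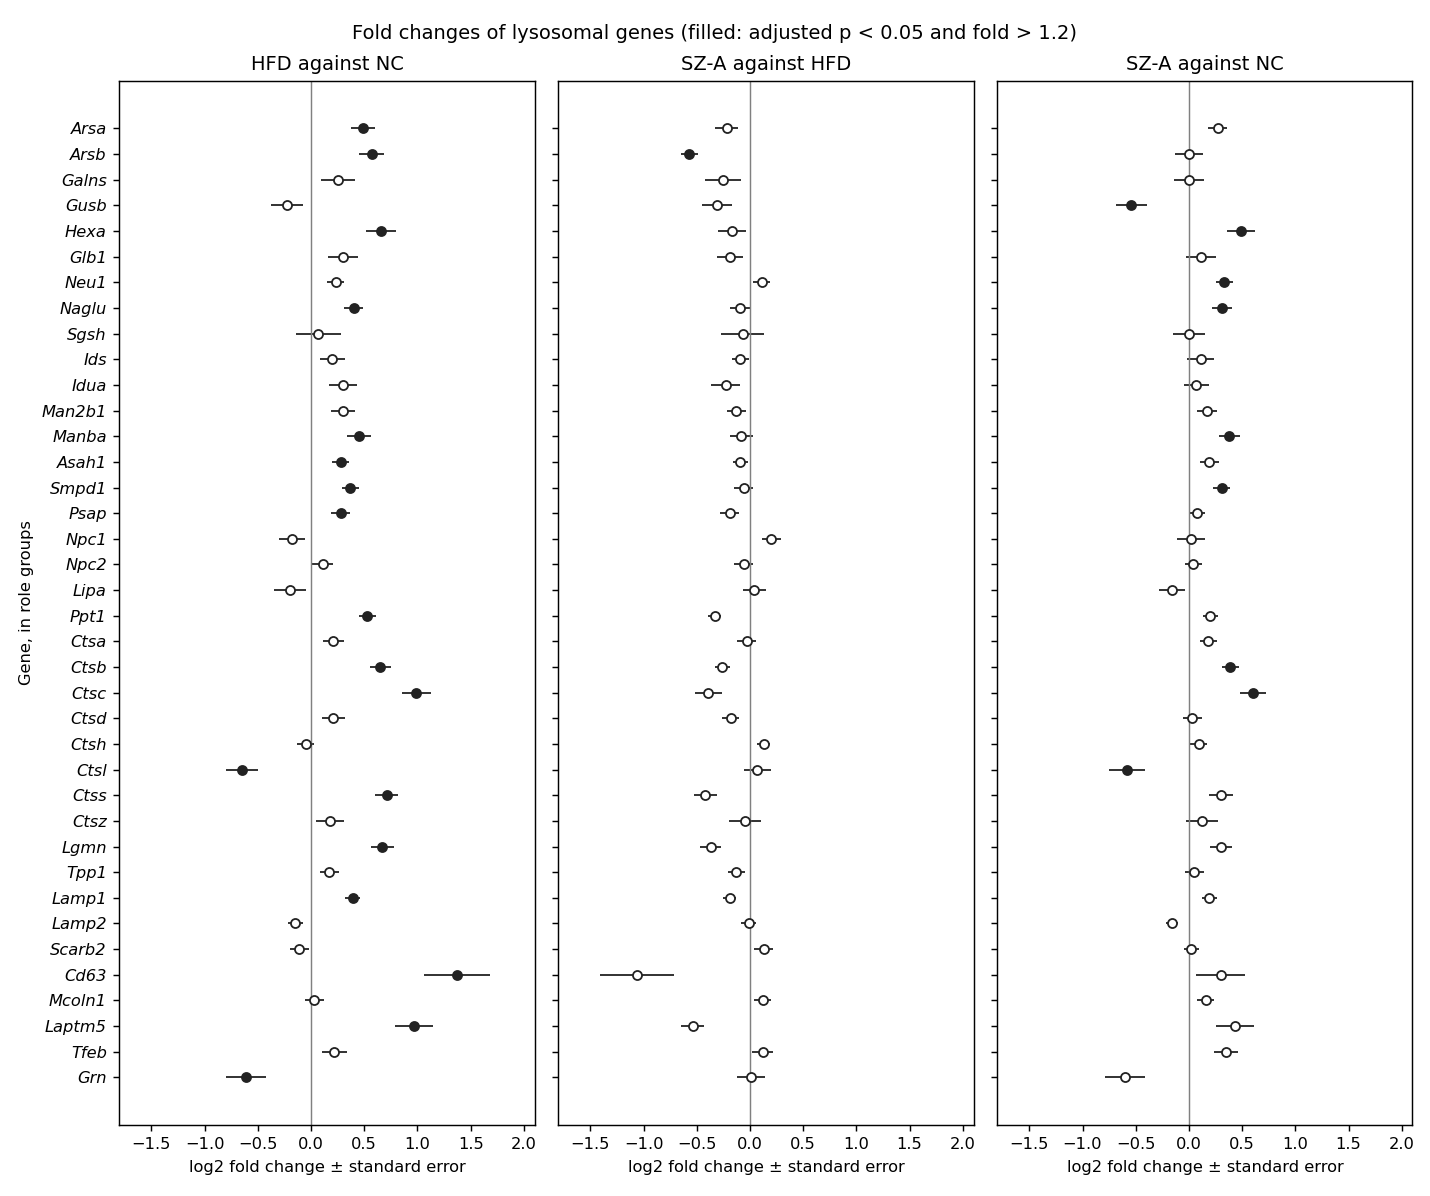
Log2 fold change (horizontal axis) of each of the 38 lysosomal genes in the 3 comparisons, with bars for the standard error; filled points are genes called changed. HFD against NC has 18 filled points, 16 to the right of 0; SZ-A against HFD has 1, Arsb; SZ-A against NC has 9.

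Between SZ-A and HFD mice, 1 of the 38 genes was called, where 0.147% of all genes tested were called in either direction and 0.0685% lower. That gene was Arsb, which fell 1.48-fold (log2 fold change -0.57 ± 0.08, adjusted p = 0.0298). All 6 SZ-A mice, at 1.97 to 2.47 FPKM, were below all 6 HFD mice, at 2.89 to 3.67. The call was not kept without HFD1, HFD2, HFD4, SZ-A3, SZ-A4 or SZ-A6, each left out in turn, where the log2 fold change was -0.58 to -0.54 and the adjusted p 0.0596 to 0.0992. The median log2 fold change of the 38 genes was -0.11, against 0.03 over all genes tested, and 13 of them had an unadjusted p under 0.05, as did 1515 of all 10216 genes. The HFD mice are the same as in the comparison with NC, so the values of both comparisons are not independent.

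For 5 genes, all SZ-A mice lay below all HFD mice, where 1.28% of all genes had groups that did not overlap. Besides Arsb these were Ppt1, Ctsb, Lamp1 and Laptm5. None of the other 4 passed the adjusted test. Ppt1 was 1.26-fold lower, with a log2 fold change of -0.33 ± 0.06, adjusted p = 0.0557. The values for Laptm5 were log2 fold change -0.54 ± 0.11, adjusted p = 0.0693, and for Ctsb and Lamp1 the log2 fold changes were -0.26 ± 0.07 and -0.19 ± 0.06 with adjusted p of 0.145 and 0.16. Ppt1 was called without HFD3 (log2 fold change -0.37, adjusted p = 0.0243) and Laptm5 without SZ-A2 (log2 fold change -0.58, adjusted p = 0.0393). Over the 12 alternatives that kept all mice, Ppt1 was called lower in 5, Laptm5 in 4, and Ctsb and Lamp1 in 1 each.

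The remaining genes with a call in HFD against NC were also not called here. Beside Ctsb, the proteases with the smallest p were Ctss (log2 fold change -0.42 ± 0.11, adjusted p = 0.117) and Lgmn (log2 fold change -0.37 ± 0.10, adjusted p = 0.117), followed by Ctsc (log2 fold change -0.39 ± 0.13, adjusted p = 0.204). Over the 12 alternatives that kept all mice, Ctss and Lgmn were called lower in 2 each and Ctsc in 1. Cd63 had the largest fold change (log2 fold change -1.06 ± 0.35, adjusted p = 0.184), with SZ-A5 at 3.0 FPKM and HFD1 at 8.16 as the extremes of their groups. Hexa, Naglu, Manba and Smpd1 had log2 fold changes of -0.17 ± 0.13, -0.09 ± 0.10, -0.08 ± 0.11 and -0.06 ± 0.09. Ctsl and Grn, the genes that were lower in HFD mice, had 0.07 ± 0.13 and 0.01 ± 0.13, and Tfeb had 0.12 ± 0.10. A gene without a call is not shown to be equal in both groups.

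Against NC, 9 of the 38 genes were called in SZ-A mice, 7 higher and 2 lower. Over all genes 9.60% were called, 5.31% higher and 4.30% lower. Hexa, Neu1, Naglu, Manba, Smpd1, Ctsb and Ctsc were higher, and Gusb and Ctsl were lower. Of the higher genes the largest change was that of Ctsc at 1.52-fold (log2 fold change 0.60 ± 0.12, adjusted p = 0.00863), followed by Hexa at 1.41-fold (log2 fold change 0.49 ± 0.13, adjusted p = 0.0363). Ctsb was 1.31-fold higher (log2 fold change 0.39 ± 0.08, adjusted p = 0.0105). Ctsb and Ctsc, with Naglu and Ppt1, were the 4 genes for which all SZ-A mice lay above all NC mice, where 5.50% of all genes had groups that did not overlap. The median log2 fold change was 0.14, against -0.01 over all genes.

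Neu1 (log2 fold change 0.33 ± 0.08, adjusted p = 0.0245) and Gusb (log2 fold change -0.54 ± 0.15, adjusted p = 0.0336) were called in this comparison and not in HFD against NC, a difference that was not tested. Manba, Smpd1 and Naglu had log2 fold changes of 0.38 ± 0.10, 0.31 ± 0.08 and 0.31 ± 0.09, with adjusted p of 0.0311, 0.0273 and 0.0498. Ctsl was 1.49-fold lower (log2 fold change -0.58 ± 0.17, adjusted p = 0.0491), with SZ-A5 at 130 FPKM apart from the other 5 SZ-A mice at 76.5 to 87.4. Lamp1, Tfeb and Grn had log2 fold changes of 0.19 ± 0.07, 0.35 ± 0.11 and -0.60 ± 0.19 and were not called. Tfeb was called higher without NC5 (log2 fold change 0.39, adjusted p = 0.0357), and with all 18 mice in 1 fit or sample weights (adjusted p = 0.045 and 0.0298). Grn was called lower without NC6 (log2 fold change -0.69, adjusted p = 0.044), without SZ-A5, with all 18 mice in 1 fit, with sample weights and with the replicate block (adjusted p = 0.0197 to 0.0411 over the last 4). Of the 9 calls, 7 were lost when some mouse was left out. The count was 2 without NC1 or SZ-A6, 3 without SZ-A3, 4 without NC3 or NC4 and 5 without NC2, SZ-A1, SZ-A2 or SZ-A4, and Ctsb and Ctsc were the 2 called in every fit. Without NC6, the mouse with the contradictory label, 8 genes were called. Gusb, Hexa and Naglu were not among them (adjusted p = 0.0557, 0.0567 and 0.0532), while Lgmn was, as higher (log2 fold change 0.35, adjusted p = 0.0474). Without NC5 the count was 9. Naglu and Ctsl were then not called (adjusted p = 0.0623 and 0.0633), and Lipa was called lower (log2 fold change -0.27, adjusted p = 0.0376).

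Mice of the HFD group differed in how far the 38 genes departed from the NC mean. The median departure, on the log2 scale, was 0.44 in HFD4, 0.43 in HFD1, 0.28 in HFD2, 0.24 in HFD6, 0.15 in HFD3 and 0.06 in HFD5. In NC mice it was -0.04 to 0.05 and in SZ-A mice 0.08 to 0.21. HFD5 was the lowest of its group for 15 of the 38 genes and HFD1 the highest for 15, and the same counts over all genes are not given here. In the same order of HFD mice, from HFD4 to HFD5, the macrophage marker sums were 582, 470, 584, 402, 447 and 634 FPKM. The mouse with the smallest median departure, HFD5, had the highest sum, while HFD6 and HFD3 had the lowest. The FPKM of all genes summed, in that same order, to 369697, 353946, 362414, 374596, 383840 and 424825. HFD5 thus also had the largest total FPKM of its group. A median over all genes is not given here for each mouse. A relation of the departure to either sum was not tested.

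**Figure D4:**
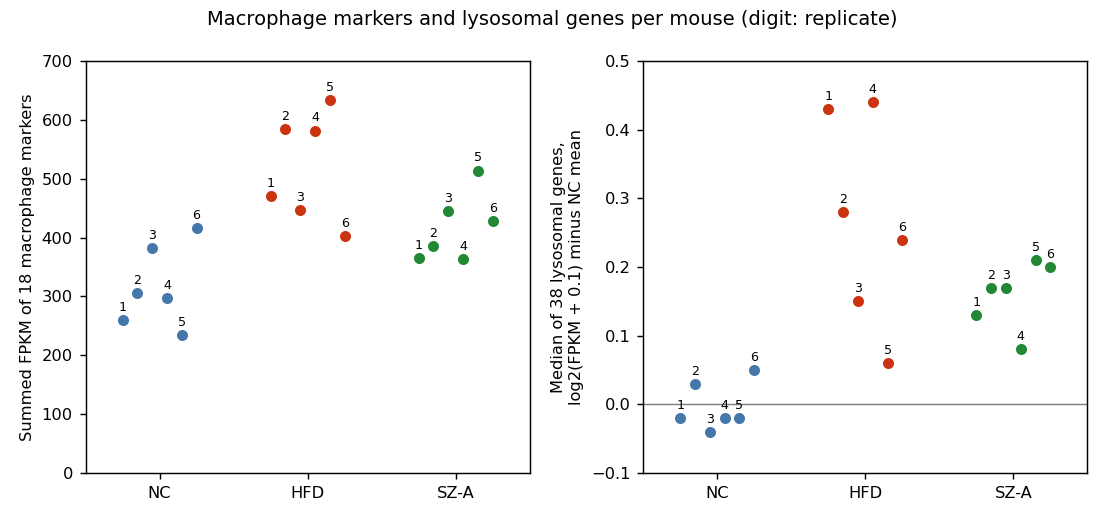
Per mouse (digit: replicate), the summed FPKM of 18 macrophage markers (left, axis from 0) and the median over the 38 lysosomal genes of log2(FPKM + 0.1) minus the NC mean (right). HFD5 has the highest marker sum, 634 FPKM, and the lowest median of the HFD mice, 0.06, and HFD4 has the highest median, 0.44, with a sum of 582 FPKM.

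Other genes of the lysosome gave context. A further 91 genes were tested, from 5 lists written from general knowledge with earlier results of these data known. Of these, 20 rose and 4 fell in HFD against NC, where 20.2% of all genes were called. Of 26 other hydrolases and cofactors, 8 rose and 2 fell. Acp5, the tartrate-resistant phosphatase of osteoclasts and macrophages, was among those that rose (log2 fold change 0.44 ± 0.09, adjusted p = 0.00313). Gaa, the acid glucosidase that degrades glycogen, fell (log2 fold change -0.51 ± 0.08, adjusted p = 0.000971). Of 23 other membrane proteins and transporters, 8 rose and 1 fell. Among them were the chloride exchanger Clcn7 (log2 fold change 0.58 ± 0.06, adjusted p = 8e-05), the amino acid transporter Slc36a1 (log2 fold change 0.86 ± 0.10, adjusted p = 0.000173) and Cd68 (log2 fold change 1.35 ± 0.19, adjusted p = 0.00048), which is also among the macrophage markers.

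The acidifying, sorting and regulatory genes are read against the same 20.2% of all genes. Of 18 V-ATPase subunits, 1 was called (5.56%), Atp6v0d2 (log2 fold change 1.2 ± 0.39, adjusted p = 0.0428), which is known from osteoclasts and macrophages, and the median over the list was 0.05 on the log2 scale. In this list, 4 of the 12 V-ATPase genes with a promoter window held the core E-box and 3 the 8-base form. Of 11 genes of mannose 6-phosphate sorting, 2 rose (18.2%), Gnptab (log2 fold change 0.48 ± 0.14, adjusted p = 0.0257) and Gga2 (log2 fold change 0.40 ± 0.11, adjusted p = 0.0202). Of 13 genes of the TFEB family and its mTORC1 control, 2 were called (15.4%). Fnip2, a partner of folliculin, rose (log2 fold change 1.23 ± 0.20, adjusted p = 0.00103) and Tfe3, a relative of Tfeb, fell (log2 fold change -0.30 ± 0.08, adjusted p = 0.0176).

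In SZ-A against HFD mice, 1 of the 91 was called, where 0.147% of all genes were called. That gene was Cd68, which fell (log2 fold change -0.64 ± 0.11, adjusted p = 0.0451) and was also the 1 macrophage marker of 13 called. No further lysosomal gene was called, Cd68 included, when SZ-A1, SZ-A4, SZ-A5, SZ-A6, HFD1, HFD2, HFD3 or HFD4 was left out. Fnip2 was not called (log2 fold change 0.11 ± 0.13, adjusted p = 0.746). In SZ-A against NC, 9 of the 91 were higher and 3 lower, where 9.60% of all genes were called, 5.31% higher and 4.30% lower. Fnip2 (log2 fold change 1.33 ± 0.21, adjusted p = 0.00232) and Clcn7 (log2 fold change 0.44 ± 0.06, adjusted p = 0.00165) were among the higher. Gaa and Sidt2, a membrane protein of the lysosome, were among the lower (log2 fold change -0.34 ± 0.07, adjusted p = 0.00908, and log2 fold change -0.42 ± 0.08, adjusted p = 0.00796). The 12 calls became 6 or 7 without NC3, SZ-A1, SZ-A3 or SZ-A6. Macrophage markers were higher for 3 of 13, with 1 called without NC1, NC2, SZ-A1, SZ-A3 or SZ-A6 and 6 called without NC6.

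**Figure D5:**
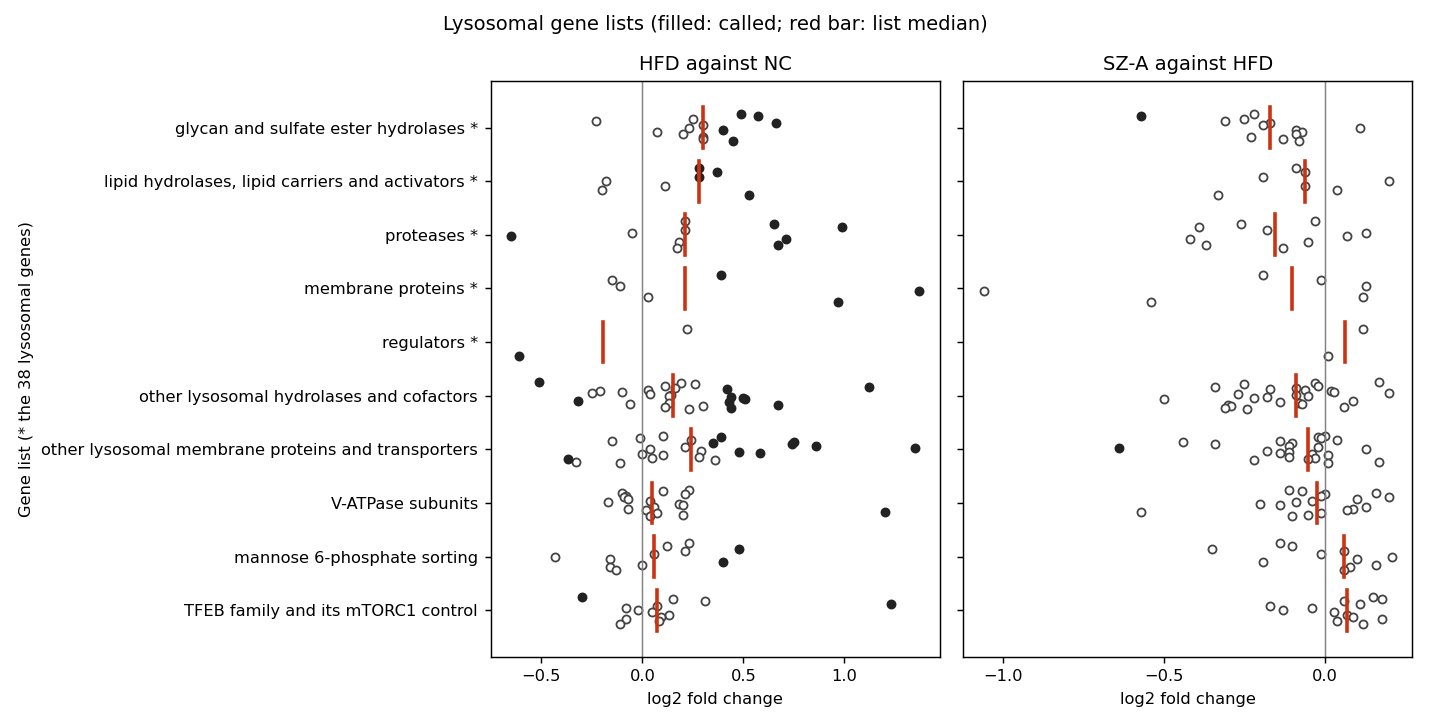
Log2 fold changes (horizontal axis) of the tested genes of the 5 role groups of the 38 genes (starred) and of 5 further lysosomal lists, in HFD against NC (left) and SZ-A against HFD (right); filled points are called and red bars mark list medians. Medians in HFD against NC range from 0.30 for glycan and sulfate ester hydrolases to 0.05 for V-ATPase subunits, except for the 2 regulators at -0.19.

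The scale of the values matters for the size of these differences. The authors' FPKM summed to 353946 to 424825 per mouse on the high-fat diet with saline, 402436 to 489187 on chow and 400729 to 442892 with SZ-A. When FPKM was rescaled to a common sum, the median of all genes moved to 0.15 in HFD against NC and to -0.15 in SZ-A against HFD. The 38 genes moved with it, to 0.45 and -0.29, so that their median minus that of all genes was 0.30 and -0.14, as against 0.29 and -0.14 before. On that scale 24 of the 38 rose and 1 fell in HFD against NC, and 8 fell in SZ-A against HFD, while of the 91 further genes 42 rose and 1 fell on the diet. The share of all genes called on that scale is not given here, so these counts have no background beside them. With median-ratio scaling instead, the medians of the 38 genes were 0.26 in HFD against NC and -0.11 in SZ-A against HFD.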

How the data were processed

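Poly-A RNA from 18 livers was read as pairs of 150 bases on an Illumina NovaSeq after NEBNext Ultra library preparation. Reads were aligned to GRCm38 (mm10) with HISAT2 2.0.5, and the submitters' processing notes also name featureCounts 1.5.0-p3. The tool that made the FPKM and its strand setting are not given in the sources used here. The authors deposited 1 table of FPKM per gene and mouse, with gene positions and lengths. Their own differential test (DESeq2) was not repeated. The test used here was chosen for FPKM, with voom on recovered fragments as an alternative.

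FPKM times gene length gave whole multiples of a step specific to each mouse, for 100% of non-zero values (tolerance 0.05 of a fragment), from which fragments per mouse were recovered. The size behind the FPKM was 0.9325 to 1.025 times that total in NC mice, 0.9983 to 1.141 in HFD mice and 0.9718 to 1.047 in those given SZ-A. No 2 mice of a group were duplicates, since the lowest chi-square per degree of freedom was 25.6.

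Titles gave each mouse its group and number. log2(FPKM + 0.1) of the 10216 genes with a mean of at least 1 FPKM was fitted in R 4.3.3 with limma 3.58.1 (lmFit, and eBayes with an intensity trend), each comparison on its own 2 groups. p-values were adjusted by Benjamini-Hochberg over all genes tested. The fit was tested on simulated data. Python 3.11.15 with numpy 2.4.6 and matplotlib 3.10.9 was used for motifs and figures. Promoter windows are those of RefSeq, GRCm38.p6.

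The 38 genes, the further lists and the cell markers were chosen with earlier results of these data known. Genes given in full are those called in any comparison and, in each role group, the one with the smallest p in each. Of each further list up to 3 with the smallest p per comparison may be named, and a gene of these lists is not reported here. Sidt2 and Tfe3 fall under that rule as well. Of cell markers, those named are among the 3 most abundant of a list, those at 0, or a gene of another list. The alternatives were pseudocounts of 1 and 0.01, no filter, a mean of at least 5 FPKM, FPKM rescaled to a common sum, median-ratio scaling, all 18 mice in 1 fit, no trend, sample weights, a replicate block, voom on the whole fragments, no fold threshold, and each mouse left out in turn. For the further lists and the macrophage markers they were chosen after seeing the data.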

Additional observations from a re-analysis of the deposited data

Results flagged for a closer look

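In each group of 6 mice, the highest and the lowest value of each of the 38 genes was compared with the others by Dixon's ratio of the gap to the whole range, at its 95% critical value. Of 114 tests, 10 passed it, where chance flags about 5%.

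NC5 had 41.4 FPKM of Hexa (the other NC mice 24.8 to 28.3), 242 of Ctsz (149 to 169) and 188 of Grn (74.9 to 103). NC1 had 21.4 of Tpp1, the tripeptidyl peptidase, against 15.9 to 16.9 in the other NC mice. NC6, whose diet label contradicts its title, had 2.4 of Galns, the sulfatase of keratan sulfate, against 1.6 to 1.84. Low in the NC group was Ppt1 in NC3, at 5.01 against 5.9 to 6.36.

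In the HFD group, Manba was low in HFD5 at 2.27 FPKM (the others 3.09 to 3.42), and Tfeb was high in HFD1 at 2.27 (1.63 to 1.85). In the SZ-A group, Naglu was high in SZ-A1 at 13.8 (9.47 to 10.9), and Ctsl was high in SZ-A5 at 130 (76.5 to 87.4).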

How the results depend on the processing

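No gene that was called in a comparison changed sign under any of its 24 alternatives. In HFD against NC, 15 to 25 of the 38 genes were called over the alternatives (16 to 18 with a mouse left out). FPKM rescaled to a common sum moved the median to 0.45 in HFD against NC and to -0.29 in SZ-A against HFD. In SZ-A against HFD, the count of 1 became 0 with no filter on low values, 2 with a mean of at least 5 FPKM, 8 with rescaled FPKM, 2 with all 18 mice in 1 fit, 5 with sample weights and 3 with voom, and 0 to 2 with a mouse left out. In SZ-A against NC, the count of 9 became 4 with no filter, and 2 to 9 with a mouse left out. Of the 91 further lysosomal genes, the 24 called in HFD against NC became 15 with a mean of at least 5 FPKM and 43 with rescaled FPKM (20 to 25 with a mouse left out). In SZ-A against HFD the 1 became 0 with no filter, with all mice in 1 fit and with no trend, 6 with rescaled FPKM and 3 with sample weights (0 to 1 with a mouse left out), and in SZ-A against NC the 12 became 6 to 16 with a mouse left out. Macrophage markers called were 4 to 8 in HFD against NC with a mouse left out. In SZ-A against HFD they were 0 with no filter, with all mice in 1 fit and with no trend, 4 with rescaled FPKM and 3 with sample weights (0 to 2 with a mouse left out), and in SZ-A against NC 1 with rescaled FPKM (1 to 6 with a mouse left out). Arsb, Manba and Cd63 were among the 10 genes not tested with a mean of at least 5 FPKM, which left 28. Apart from the fewer genes or mice tested, the causes were not tested. Shares called over all genes under the alternatives are not given here, so these counts have no background beside them.

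With the replicate number as a block, 15 of the 38 genes were called in HFD against NC, 0 in SZ-A against HFD and 8 in SZ-A against NC, the further lysosomal genes had 0 calls in SZ-A against HFD, and macrophage markers had 4 in HFD against NC and 0 in SZ-A against HFD. Deviations of same-numbered mice correlated at -0.12 to 0.29, the highest being that of SZ-A2 with HFD2. Such low values give little sign of pairing by number and cannot exclude it. At 17163191 to 20493907 fragments per mouse, mice of a group differed by more than counting error over all genes (chi-square per degree of freedom of at least 25.6).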

Other observations

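Within the SZ-A group, SZ-A5 was the highest of the 6 mice for 16 of the 38 genes, and SZ-A4 the lowest for 12. Such counts over all genes are not given here. Over all genes, pairs with SZ-A5 had a chi-square per degree of freedom of 64 to 196, and the other SZ-A pairs 25.6 to 107. SZ-A5 also had the highest sum of macrophage markers of its group, 514 FPKM against 363 to 446 in the other SZ-A mice. In NC5, which was the highest of its group for Hexa, Ctsl, Ctsz and Grn, the macrophage sum was the lowest of all mice, 235 FPKM, and Laptm5 the lowest of all mice, 2.46 FPKM.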
